A study of Mus musculus with 6 samples.

Results

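Chemokines are small secreted proteins that bind G protein-coupled receptors and direct the movement of leukocytes, and they are grouped as CC, CXC, CX3C or XC by the spacing of their first cysteines. The chemokine and chemokine receptor genes were taken as every gene of the array with a symbol of the Ccl, Cxcl, Cx3cl, Xcl, Ccr, Cxcr, Cx3cr or Ackr series, leaving out the lung chemokine Cxcl15, which gave 54 of 22179 genes measured, 33 ligands and 21 receptors. In lung, epithelial cells, endothelium and resident macrophages make ligands, while most of the classical receptors are carried by leukocytes. Atypical receptors, the Ackr genes, bind chemokines without the usual G protein signal and take up or transport them.

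The cells came from mouse small-cell lung cancer, a neuroendocrine tumour. Mice with conditional alleles of Rb, p53 and p130 and a GFP reporter allele for Hes1, a repressor induced by Notch signalling, received adenoviral Cre into the trachea, which deletes the 3 genes in cells that take it up; all samples share these alleles and this treatment. Tumours were taken 5 to 6 months later, pooled from 3 mice and sorted into GFP-negative cells, which the labels call negative or low, and GFP-high cells, and 3 samples of each were put on Affymetrix Mouse Gene 2.0 ST arrays. The labels give no cell type for Cre, no age or strain and no exclusion of leukocytes from the sort. Samples are called biological replicates, but nothing ties a sample to its own pool, so the p-values measure the spread between these samples, which may be partly technical.

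The deposited values are log2 expression made with RMA, so a log2 difference of 1 is a 2-fold difference, and levels are not compared between genes here. Hes1 was higher in the GFP-high arrays by 3.54 ± 0.13 (log2 fold change ± SE). Arrays of a group correlated at 0.987 to 0.991 and arrays of different groups at 0.918 to 0.940. With 3 arrays per group the precision is limited by their number. Of 6 neuroendocrine markers measured all 6 were lower in GFP-high cells (median log2 fold change -2.34). Club cell markers (6 of 6 higher, median 4.68), type 2 alveolar cell markers (7 of 8) and type 1 alveolar cell markers (6 of 6, median 2.41) were also higher there. The mean log2 level of the club list ran from 12.50 to 12.70 in GFP-high arrays and from 8.04 to 8.95 in GFP-negative arrays. For alveolar type 2 markers it ran from 9.64 to 10.12 against 6.12 to 6.66, and for alveolar type 1 markers from 9.02 to 9.39 against 6.37 to 6.60. The part of these markers in the chemokine differences below was not tested. In sorted samples more cells of a type and more RNA per cell cannot be told apart.

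Promoter sequence is shown for the CXC ligand genes on chromosome 5 that had a window and for Cx3cl1, since some of these neighbours passed the test between the groups and others did not. RefSeq windows on build GRCm38.p6, from 250 bases before to 50 bases after an annotated start, were found for 40 of the 54 genes. Cxcl5, Cxcl11, Cxcl16 and Cxcl17 had none in the table. The stretches below lie directly before the start, on the gene's own strand, 5′ to 3′. In Cxcl1, Cxcl2 and Cxcl3, the ligands of the neutrophil receptor Cxcr2, capitals mark matches to the kappaB motif, the word bound by NF-kB.
Cxcl1, plus strand, chr5:90891125-90891244: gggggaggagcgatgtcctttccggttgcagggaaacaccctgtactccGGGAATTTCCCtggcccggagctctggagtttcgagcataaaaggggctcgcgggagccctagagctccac
Cxcl2, plus strand, chr5:90903779-90903898: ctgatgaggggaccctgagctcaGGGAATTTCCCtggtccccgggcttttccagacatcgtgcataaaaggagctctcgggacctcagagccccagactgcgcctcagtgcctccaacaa
Cxcl3, plus strand, chr5:90785981-90786100: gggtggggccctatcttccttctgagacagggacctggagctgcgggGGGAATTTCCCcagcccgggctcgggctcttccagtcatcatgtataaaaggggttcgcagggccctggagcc
All 3 carried the same kappaB letters, GGGAATTTCC on the gene strand overlapping a match on the other strand. The first base lay at -71 in Cxcl1, -97 in Cxcl2 and -73 in Cxcl3, counted from the start.

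In Cxcl10, a ligand of Cxcr3 induced by interferon, capitals mark an interferon-stimulated response element, GAAANNGAAA, and further along 2 stretches that match kappaB, the second of them by 2 overlapping words.
Cxcl10, minus strand, chr5:92348890-92349129: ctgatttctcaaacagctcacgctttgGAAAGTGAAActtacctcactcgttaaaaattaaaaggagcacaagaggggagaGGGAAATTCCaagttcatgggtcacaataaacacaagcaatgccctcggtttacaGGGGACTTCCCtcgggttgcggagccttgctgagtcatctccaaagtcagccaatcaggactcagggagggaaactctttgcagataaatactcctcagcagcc
The response element began at -213 and the kappaB words at -159, -104 and -103. In Cxcl9, another interferon-induced ligand of Cxcr3, Cxcl13, the ligand of the B cell receptor Cxcr5, and Cx3cl1, the membrane-anchored ligand of Cx3cr1, capitals mark TATAAA. The match in Cxcl9 began at -195, and its window held no other motif searched.
Cxcl9, minus strand, chr5:92328080-92328319: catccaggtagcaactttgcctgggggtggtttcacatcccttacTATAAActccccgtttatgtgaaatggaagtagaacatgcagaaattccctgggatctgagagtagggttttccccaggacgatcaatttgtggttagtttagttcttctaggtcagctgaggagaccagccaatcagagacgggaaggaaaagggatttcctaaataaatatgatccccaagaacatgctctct
Cxcl13, plus strand, chr5:95956819-95956938: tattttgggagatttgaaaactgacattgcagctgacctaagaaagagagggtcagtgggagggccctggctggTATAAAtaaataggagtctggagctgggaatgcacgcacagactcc
Cx3cl1, plus strand, chr8:94772060-94772179: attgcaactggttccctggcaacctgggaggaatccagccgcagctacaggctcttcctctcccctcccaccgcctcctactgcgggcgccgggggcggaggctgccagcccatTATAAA

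The 40 genes with a window had 44 windows. Searched on both strands, kappaB was held by 12 of the 44, from 12 genes, and by 8.46% of all 32851 windows of this length. The 12 genes include 2 of the 3 higher genes that had a window (Cxcl1 and Cxcl10) and 1 of the 3 lower ones (Ccl27a). Genes without a call such as Cxcl2, Cxcl3, Ccl20 and Ccl9 are also among them. The interferon-stimulated response element was in 2 of the 44 windows, those of Cxcl10 and Cxcl14, and in 3.44% of all windows. TATAAA was in 12 of the 44 windows and 13.6% of all windows. The core word of RBPJ, the DNA-binding protein of Notch signalling, TGGGAA, was in 14 of the 44 windows and 25.6% of all windows. In Cxcl13 it lay from -22 to -17. In Ccl1, Ccr3 and Ccr6 a match to TGGGAA overlapped one to kappaB, whose letters can contain it in part. A match describes letters and no binding was measured.

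**Figure D1:**
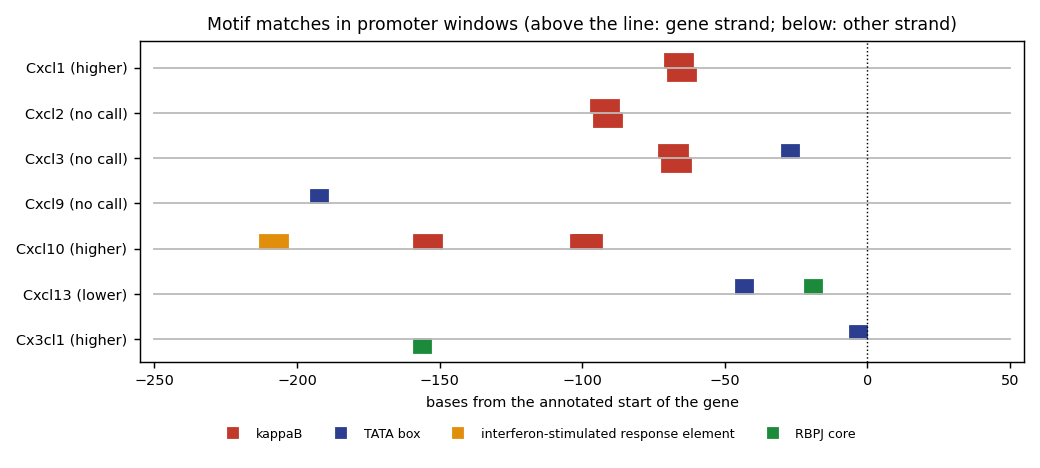
Matches to 4 motifs in the promoter windows of 7 chemokine genes, by distance in bases from the annotated start; boxes above a line are on the gene strand and boxes below on the other. Cxcl1, Cxcl2 and Cxcl3 hold kappaB between -97 and -61, and Cxcl10 holds an interferon-stimulated response element beginning at -213 and kappaB matches beginning at -159, -104 and -103.

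Few chemokine genes differed between the sorted populations, 8 of the 33 ligands and 1 of the 21 receptors. Of the 54 genes 6 were higher in GFP-high cells (Cxcl16, Cx3cl1, Cxcl17, Cxcl10, Cxcl5 and Cxcl1) and 3 were lower (Cxcl13, Ccl27a and the atypical receptor Ackr1), by limma at an adjusted p under 0.05. The higher genes were 11.1% of the 54, against 13.0% of all 22179 genes, and the lower ones 5.56%, against 17.0%. Calls with an absolute log2 fold change of at least 1 made up 7 of 54 (13%), against 11.7% of all genes. The median log2 fold change was 0.10 over these genes and 0.01 over all genes. The 2 groups of arrays did not overlap for 13 of the 54 genes (24.1%), against 44.6% of all genes.

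**Figure D2:**
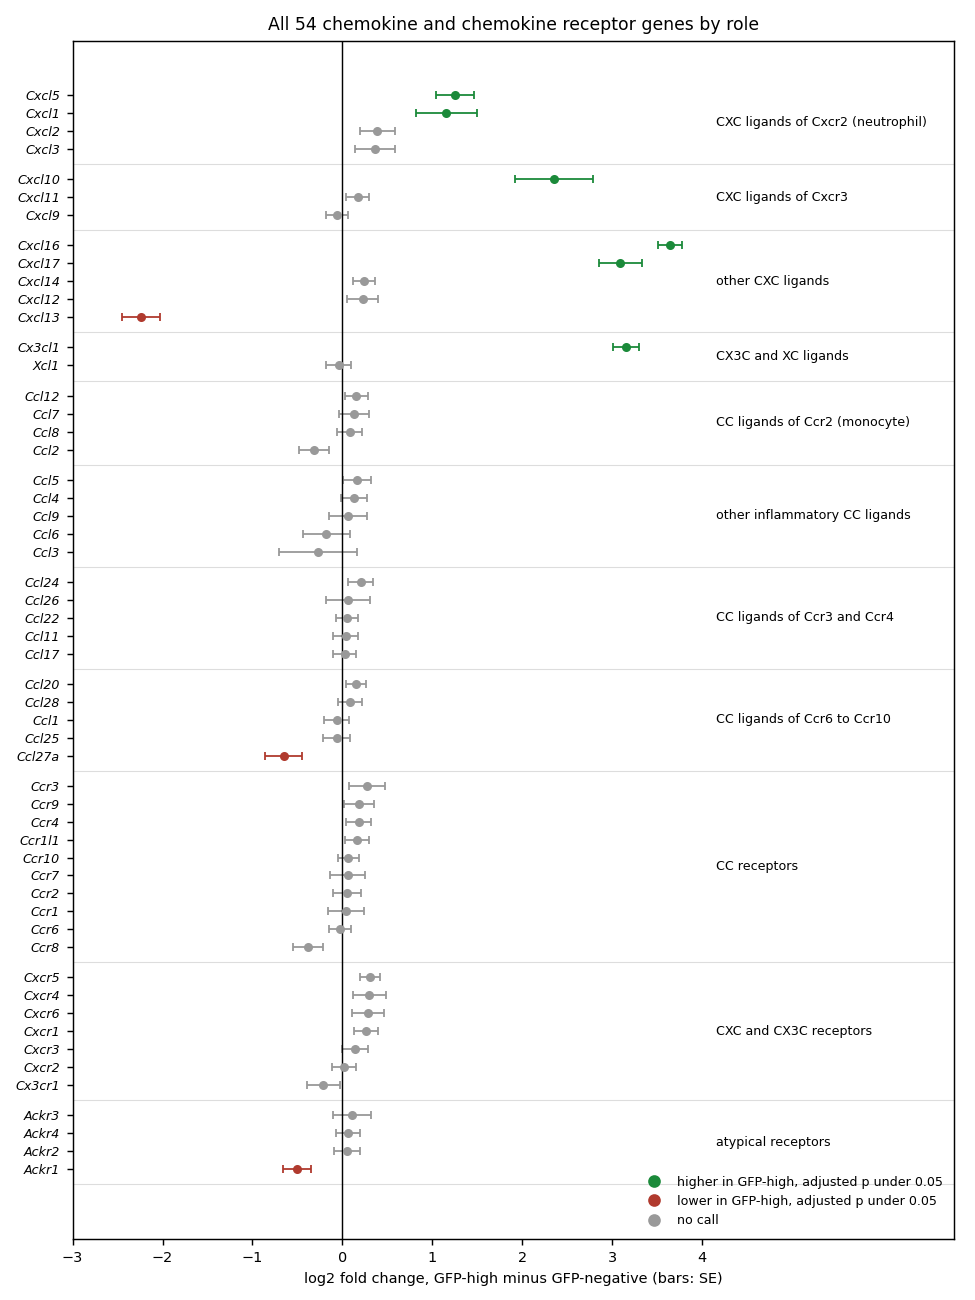
Log2 fold change (GFP-high minus GFP-negative) of the 54 genes, ordered by role, with SE bars from limma on 3 arrays per group; green marks genes higher and red genes lower at an adjusted p under 0.05. The 20 receptors without a call and 18 of 19 CC ligands lie between -0.38 and 0.31, while Cxcl16, Cx3cl1 and Cxcl17 lie above 3.

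The 3 largest differences were rises of Cxcl16, Cx3cl1 and Cxcl17. Cxcl16 encodes a chemokine made as a membrane-bound protein, which also takes up oxidised lipoprotein and is released by the protease ADAM10. It read 10.12, 9.81 and 9.85 on the GFP-high arrays and 6.44, 6.15 and 6.26 on the GFP-negative arrays. All 3 GFP-high values lay more than 3 log2 units above every GFP-negative value. The difference was 3.64 ± 0.13 (log2 fold change ± SE), or 12.5-fold, with an adjusted p of 4.87e-07 by limma.

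Cx3cl1 encodes fractalkine, whose chemokine head sits on a mucin stalk and which holds or attracts Cx3cr1-bearing leukocytes. It read 9.16, 9.23 and 9.28 in GFP-high and 6.10, 6.30 and 5.79 in GFP-negative samples. The GFP-high arrays were closer to each other (SD 0.06) than the GFP-negative ones (SD 0.25), and the groups lay far apart. The log2 fold change was 3.16 ± 0.14, an 8.93-fold difference (adjusted p = 1.45e-06, limma). Its immediate neighbours on chromosome 8 are the CC ligands Ccl22 on one side and Ccl17 on the other, which attract Ccr4-bearing T cells. Their log2 fold changes were 0.05 ± 0.13 and 0.03 ± 0.13 with no call, and both changed sign under quantile normalization (-0.02 and -0.05).

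Cxcl17, a mucosal chemokine gene of airway epithelium, read 10.76, 10.57 and 10.62 on GFP-high arrays and 7.23, 8.18 and 7.27 on GFP-negative arrays. GFP-negative replicate 2 was the highest of its group and still lay below every GFP-high value. The rise was 3.09 ± 0.24 on the log2 scale, 8.53-fold (adjusted p = 3.16e-05, limma). On that same array the median of the club markers was 8.43, against 7.75 and 7.69 on the other GFP-negative arrays. That of alveolar type 2 markers was 6.35 against 5.52 and 5.74. Alveolar type 1 markers went the other way, with a median of 6.24 against 6.71 and 6.67.

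**Figure D3:**
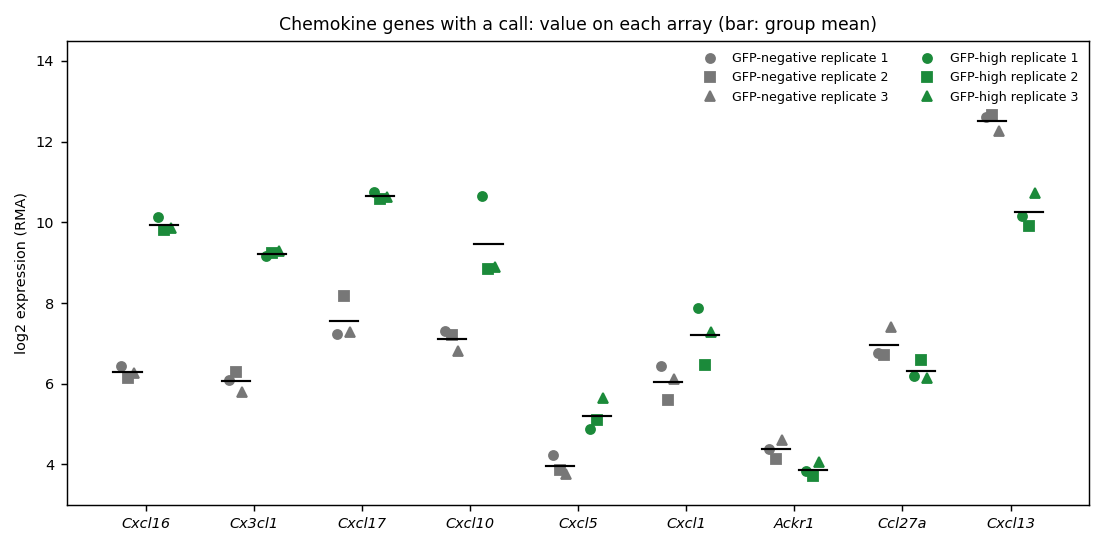
Log2 expression on each of the 6 arrays for the 9 genes with a call, GFP-negative in grey and GFP-high in green, with replicate numbers by symbol and bars at group means. The groups do not overlap for any of the 9; Cxcl10 is highest on GFP-high replicate 1 at 10.65, and Cxcl1 on GFP-high replicate 2, at 6.47, is just above the highest GFP-negative value, 6.44.

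Of the ligands of Cxcr3, which recruits activated T and NK cells, Cxcl10 rose and the other members had no call. Cxcl10 read 10.65, 8.85 and 8.89 in GFP-high samples and 7.32, 7.20 and 6.82 in GFP-negative samples. GFP-high replicate 1 stood well above the other GFP-high arrays, and all 3 were above the GFP-negative ones. The log2 fold change was 2.35 ± 0.43, 5.10-fold (adjusted p = 0.00331, limma), and without GFP-high replicate 1 it was 1.76. A test for each gene without moderation did not keep the call (adjusted p = 0.0681). Cxcl9 stayed between 4.36 and 4.69 on all arrays (-0.06 ± 0.12) and Cxcl11 between 4.21 and 4.62 (0.17 ± 0.13; log2 fold change ± SE). In the RefSeq gene order only Art3 stands between Cxcl9 and Cxcl10. Whether the change of Cxcl10 differed from that of Cxcl9 was not tested.

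Among the ligands of Cxcr2, which draw neutrophils, Cxcl5 and Cxcl1 rose and Cxcl2 and Cxcl3 had no call. Cxcl5, an epithelial neutrophil attractant, read 4.87, 5.11 and 5.64 on GFP-high arrays and 4.23, 3.87 and 3.77 on GFP-negative arrays. These values do not overlap, and the difference was 1.25 ± 0.21 on the log2 scale (2.38-fold, adjusted p = 0.00199, limma). Cxcl5 was among the genes removed by leaving out the lowest 30%, and low signal cannot be separated from background here.

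Cxcl1, the mouse keratinocyte-derived chemokine, read 7.88, 6.47 and 7.27 in GFP-high and 6.44, 5.60 and 6.12 in GFP-negative cells. The groups are separated by only 0.03 between GFP-high replicate 2 and GFP-negative replicate 1. The log2 fold change was 1.15 ± 0.34 (2.23-fold, adjusted p = 0.0322, limma). The call was lost without GFP-high replicate 1 (adjusted p = 0.0897), GFP-high replicate 3 (0.0780), GFP-negative replicate 2 (0.110) or GFP-negative replicate 3 (0.0654), and in a test without moderation (0.178).

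Cxcl2 and Cxcl3 had no call, with log2 fold changes of 0.39 ± 0.19 (adjusted p = 0.173) and 0.36 ± 0.22 (adjusted p = 0.277, limma). Cxcl2 read 7.11, 6.50 and 6.56 in GFP-high and 6.58, 6.10 and 6.33 in GFP-negative samples, so the groups overlapped. Cxcl3 read 3.43, 3.63 and 4.29 against 3.41, 3.19 and 3.65, with only GFP-high replicate 3 above all GFP-negative values. Whether the changes of Cxcl5, Cxcl1, Cxcl2 and Cxcl3 differed from each other was not tested. These 4 genes lie in 1 cluster on chromosome 5, in the order Cxcl5, Cxcl3, Cxcl1, Cxcl2, and the kappaB letters printed above are the same in the called Cxcl1 and the uncalled Cxcl2 and Cxcl3. Cxcl15, which is not among the 54 genes, lies between Cxcl3 and Cxcl1 and was higher by 5.63 on the log2 scale (adjusted p = 6.45e-07, limma). Ppbp, the next gene to Cxcl5 and a platelet chemokine of the same receptor, had a log2 fold change of -0.02 (adjusted p = 0.930, limma). Of 3 platelet markers 1 was higher (Gp5, 0.66) and 2 had no call, beside 13.0% higher over all genes.

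Cxcl13 was the chemokine gene with the largest fall. Its protein organises B cell follicles and lymphoid aggregates. It read 12.60, 12.66 and 12.25 in GFP-negative cells and 10.17, 9.91 and 10.72 in GFP-high cells. GFP-high replicate 3 had the highest value of its group, and all 3 GFP-high arrays were below every GFP-negative array by over 1.5 log2 units. The gene fell by 2.24 on the log2 scale (SE 0.21), a 4.73-fold difference (adjusted p = 9.69e-05, limma). The same array had the highest median of neuroendocrine markers among GFP-high arrays, 8.42 against 7.45 and 7.31. In GFP-negative arrays those medians were 10.10, 10.19 and 10.31. Over all genes 13.0% were higher and 17.0% lower. B cell markers, measured on the same arrays, had 1 higher (Cd79b), 0 lower and 3 without a call of 4 measured by limma. Their mean log2 levels were 4.51 to 4.69 in GFP-negative and 4.69 to 5.01 in GFP-high arrays. Fibroblast and pericyte markers had 0 higher, 1 lower (Dcn) and 7 without a call of 8, with mean levels of 5.62 to 5.72 and 5.48 to 6.09. Among GFP-high arrays their median was also highest on replicate 3, 5.86 against 5.52 and 5.30, as was that of B cell markers, 5.01 against 4.91 and 4.74. Dcn read 8.77, 8.86 and 10.26 on GFP-high and 10.41, 11.18 and 10.71 on GFP-negative arrays. The part of any of these markers in the Cxcl13 values was not tested.

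The remaining CXC ligands had no call. Cxcl12, the stromal ligand of Cxcr4 that retains blood progenitors in marrow, read 5.61, 5.10 and 5.79 in GFP-high and 5.27, 5.31 and 5.24 in GFP-negative cells (0.23 ± 0.17, adjusted p = 0.391, limma). GFP-high replicate 2 was below and the other GFP-high arrays above the GFP-negative values, and without that array Cxcl12 passed the threshold (log2 fold change 0.43, adjusted p = 0.0429). Cxcl14 differed by 0.24 ± 0.12 with groups that did not overlap (adjusted p = 0.194, limma). Xcl1, the XC ligand of cytotoxic lymphocytes, stayed between 4.31 and 4.79.

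No CC ligand passed as higher. Of 19 measured, 0 were higher, 1 was lower and 18 had no call by limma, beside 13.0% higher and 17.0% lower over all genes. At an unadjusted p under 0.05 by limma the counts were 0 higher and 1 lower, beside 17.4% and 21.7%. The monocyte attractants of Ccr2 (Ccl2, Ccl7, Ccl8 and Ccl12) ran from -0.32 to 0.16 in log2 fold change. The leading value was that of Ccl2, with 4.95, 5.32 and 5.56 in GFP-high against 5.72, 5.56 and 5.49 in GFP-negative cells (-0.32 ± 0.16, adjusted p = 0.199 by limma). The ligands of the eosinophil and T helper receptors Ccr3 and Ccr4 (Ccl11, Ccl24, Ccl26, Ccl17 and Ccl22) ran from 0.03 to 0.20. Ccl20, an epithelial ligand of Ccr6, differed by 0.15 ± 0.11 with groups that did not overlap, and Ccl28, Ccl1 and Ccl25 differed by less than 0.1.

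Ccl27a, a skin-homing ligand of Ccr10, was the CC ligand with a call. It read 6.20, 6.58 and 6.14 in GFP-high and 6.76, 6.70 and 7.41 in GFP-negative cells, where replicate 3 was highest. It fell by 0.65 on the log2 scale (SE 0.21, adjusted p = 0.0439, limma). A second row of the gene fell short of the threshold (-0.47, adjusted p = 0.0896 when it stood for the gene). The call was also lost under quantile normalization (0.0722) and without GFP-negative replicate 1 (0.0570), GFP-negative replicate 3 (0.100), GFP-high replicate 1 (0.123) or GFP-high replicate 3 (0.121). With the replicate number as a block its adjusted p was 0.0687, and without moderation it was 0.174. The gene has near-identical copies on chromosome 4, so its value is uncertain. The 11 rows that name several genes, Ccl27a or Ccl27b among them, were all lower (log2 fold change -0.88 to -0.52), but they share sequence and are not separate evidence. The 13 rows for Ccl19 and its copies (-0.13 to 0.07) and the 9 for the Ccl21 copies (0.14 to 0.20), ligands of the homing receptor Ccr7, had no call.

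Ccl3, Ccl6 and Ccl9, myeloid ligands of Ccr1, did not differ between the groups beyond their spread, but they were low on the same arrays. Ccl3 read 6.44, 4.74 and 6.53 on GFP-high arrays and 6.36, 5.81 and 6.36 on GFP-negative arrays. Ccl6 read 6.18, 5.48 and 6.50 against 6.50, 5.87 and 6.32. Ccl9 read 7.01, 6.54 and 7.36 against 7.07, 6.66 and 6.98. In each group replicate 2 was lowest for all 3 genes, which were singled out after their values were seen. This was not particular to them, since Ccl4, Ccl7, Ccl8, Ccl17, Ccl28, Ccr1, Ccr9, Cxcl2, Cxcr4 and Xcl1 also had it. So did the called Cxcl1, Cxcl16 and Ackr1. The median over all genes was lowest there too, at 5.86 in GFP-negative and 5.89 in GFP-high arrays. Of the 45 genes without a call, 17 had their lowest GFP-high value on replicate 1, 17 on replicate 2 and 11 on replicate 3. Macrophage and monocyte markers were also lowest on replicate 2 of each group, with list medians of 5.75, 5.24 and 5.89 on GFP-high and 5.44, 5.10 and 5.37 on GFP-negative arrays. Their part in the chemokine values was not tested. The log2 fold change of Ccl3, -0.27 ± 0.43 (adjusted p = 0.693, limma), became 0.31 without GFP-high replicate 2. Its 95% interval from the fit, -1.25 to 0.71, was the only one among genes without a call to reach past 1 log2 unit. Ccl4 (0.13 ± 0.15) and Ccl5 (0.16 ± 0.16), attractants of T cells and monocytes, had no call.

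**Figure D4:**
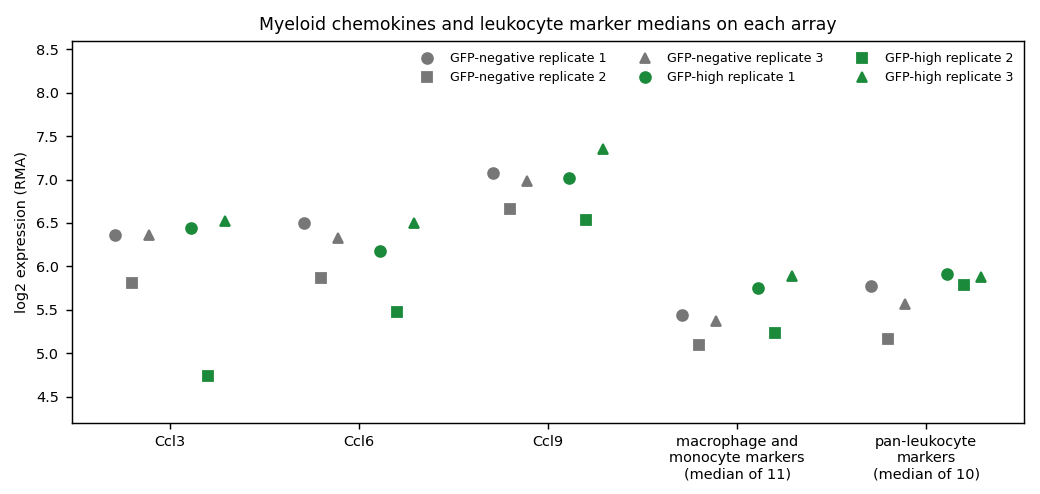
Log2 expression of Ccl3, Ccl6 and Ccl9 and the median log2 expression of macrophage and monocyte markers and of pan-leukocyte markers on each array; grey is GFP-negative, green GFP-high, and symbols give the replicate number. Replicate 2 is lowest in both groups in each of the 5 columns, with Ccl3 at 4.74 on GFP-high replicate 2.

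Of 21 receptors measured, 0 were higher, 1 (Ackr1) was lower and 20 had no call by limma, beside 13.0% higher and 17.0% lower over all genes. At an unadjusted p under 0.05 by limma the counts were 1 higher (Cxcr5) and 2 lower (Ackr1 and Ccr8), beside 17.4% and 21.7% over all genes. The 10 CC receptors ran from -0.38 to 0.27 and the 7 CXC and CX3C receptors from -0.21 to 0.31 in log2 fold change. Ccr8, a receptor of regulatory T cells, gave the lowest of these values (-0.38 ± 0.16, adjusted p = 0.118, limma), and without GFP-high replicate 2 it passed (-0.52, adjusted p = 0.0455).

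Cxcr6, Cx3cr1, Cxcr3, Cxcr2, Ccr10 and Cxcr5, signalling receptors of called ligands other than Cxcl17, had no call. Cxcr6, the receptor of Cxcl16 on T and NKT cells, read 4.35, 4.94 and 4.28 in GFP-high and 4.19, 4.18 and 4.33 in GFP-negative cells (0.29 ± 0.18, adjusted p = 0.274). Only GFP-high replicates 1 and 2 lay above all GFP-negative values, replicate 1 by very little. Cx3cr1, the receptor of Cx3cl1 on monocytes and macrophages, read 6.16, 6.57 and 5.93 against 6.56, 6.20 and 6.53 (-0.21 ± 0.18, adjusted p = 0.448, limma). Its groups overlapped, as did those of Cxcr3 (0.14 ± 0.14), Cxcr2 (0.02 ± 0.14) and Ccr10 (0.07 ± 0.12). Cxcr5, the receptor of Cxcl13, read 4.75, 4.93 and 4.86 against 4.55, 4.43 and 4.64. These groups did not overlap, and the difference, 0.31 ± 0.11, missed the threshold (adjusted p = 0.0763, limma). The groups of Cxcr1, which also had no call, did not overlap either (0.26 ± 0.13, adjusted p = 0.180, limma).

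Cxcr4, the Cxcl12 receptor carried by many tumour cells, read 8.26, 7.65 and 7.72 in GFP-high and 7.64, 7.32 and 7.77 in GFP-negative cells. Its difference of 0.30 ± 0.19 (adjusted p = 0.284, limma) was within the spread, and its 95% interval ran from -0.13 to 0.73. Ackr3, the scavenging receptor of Cxcl12, read 7.04, 6.48 and 6.74 against 6.36, 7.09 and 6.48 (0.11 ± 0.21), with overlapping groups. Of the 45 genes without a call, 44 had an interval that stayed within 1 log2 unit of 0. A difference in array signal beyond 2-fold lay outside those intervals. Leaving out the lowest 30% of genes removed 22 ligands and receptors, of which only Cxcl5 and Ackr1 had a call. RMA compresses low-level changes, so for uncalled genes this low the interval cannot exclude a larger difference in RNA.

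Ackr1, the Duffy receptor of red cells and venules, which binds many chemokines, Cxcl1 and Cxcl5 among them, was the receptor with a call. It read 3.83, 3.71 and 4.06 in GFP-high and 4.38, 4.13 and 4.60 in GFP-negative cells, and the groups were separated by 0.07. It fell by 0.50 on the log2 scale (SE 0.15, adjusted p = 0.0386, limma). Ackr1 was among the genes removed by leaving out the lowest 30%, and low signal cannot be separated from background here. The call was lost without GFP-negative replicate 1 (0.100), GFP-negative replicate 3 (0.119), GFP-high replicate 1 (0.105) or GFP-high replicate 2 (0.123), and without moderation (0.123). Endothelial markers on these arrays had 1 higher (Kdr, 3.87), 0 lower and 6 without a call of 7. Over all genes 13.0% were higher and 17.0% lower. The 6 without a call ran from -0.33 (Tek) to 0.35 (Emcn), and Cldn5 (0.18) had groups that did not overlap.

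Leukocyte markers are set beside these ligands and receptors, and by the same test 13.0% of all genes were higher and 17.0% lower. Of 10 pan-leukocyte markers 2 were higher (Lcp1, 3.25, and Cytip, 2.37), 1 was lower (Coro1a, -1.09) and 7 had no call, with Ptprc, which encodes CD45, at -0.46. Their mean log2 level ran from 6.06 to 6.41 in GFP-high and from 5.60 to 6.00 in GFP-negative arrays. Of 11 macrophage and monocyte markers 2 were higher (Ly6c2, 2.66, and Cd14, 2.32), 1 was lower (C1qa, -0.42) and 8 had no call, Csf1r, Adgre1 and Cd68 among them. Their mean levels were 5.74 to 6.07 and 5.31 to 5.72. Neutrophil markers had 1 of 7 higher (Retnlg, 0.65), dendritic cell markers 0 of 5 and T and NK cell markers 0 of 9 with a call by limma. No RMA value is 0, so absence cannot be read from these arrays, and the lowest value among pan-leukocyte markers was 4.14.

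Genes listed for the processing and presentation of chemokines had calls in 1 direction. Of 11 measured proteases and glycosaminoglycan genes 7 were higher, 0 lower and 4 without a call (median 1.07), beside 13.0% higher over all genes. Dpp4, a peptidase that trims chemokine ends, rose by 4.36, the heparan sulfate carriers Sdc1 and Sdc4 by 2.88 and 1.65, and the protease gene Mmp14 by 1.30 on the log2 scale. Adam17, which releases membrane-bound Cx3cl1, rose by 0.71, and Adam10, which releases Cxcl16 and Cx3cl1, had no call at -0.11; both were named after their values were seen.

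The axis from TNF and IL-1 to NF-kB, which induces many chemokines, had 13 of 19 genes higher, 0 lower and 6 without a call (median 0.49), beside 13.0% higher and 17.0% lower over all genes. The IL-1 receptor gene Il1r1 rose by 2.13, Nfkb2 by 1.62, the inhibitor Nfkbie by 1.59 and the adaptor Myd88 by 1.34. The club and alveolar markers given above were higher on the same arrays, and their part in the genes of this axis was not tested.

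Of 21 genes of signalling below the receptors 3 were higher, near the 13.0% over all genes, 8 were lower, beside 17.0% over all genes, and 10 had no call (median -0.24). The regulators of G protein signalling Rgs16 and Rgs2 fell by 2.16 and 2.05, the Rac activator subunit gene Elmo1 by 1.73, while the arrestin gene Arrb1 rose by 1.64. Neuroendocrine markers fell on the same arrays (6 of 6, median -2.34), and their part in these signalling genes was not tested. Among 12 chemotactic relatives outside the naming series 4 were higher, 3 lower and 5 without a call, beside the same shares over all genes (13.0% and 17.0%). Ccrl2, a receptor-like protein that presents chemerin, rose by 2.36, the chemokine-like factor relatives Cmtm7 and Cmtm8 by 1.38 and 1.15, and Cmtm3 fell by 1.29. Mif (-0.35), Pf4 (0.17) and the XC receptor gene Xcr1 (-0.15) had no call.

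**Figure D5:**
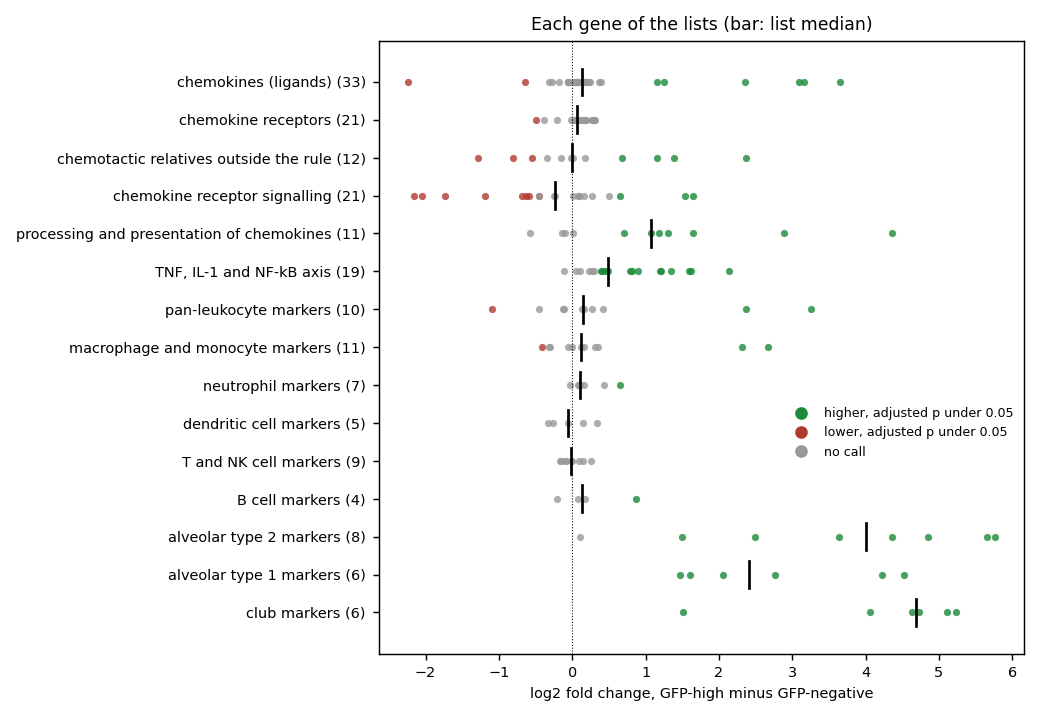
Log2 fold change (GFP-high minus GFP-negative) of each gene of the chemokine, pathway and cell marker lists, green for higher and red for lower at an adjusted p under 0.05, with a bar at the list median and the number of genes in brackets. Receptors lie near 0 with a median of 0.07, ligands have a median of 0.13 with a tail up to 3.64, and the processing list has a median of 1.07.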

How the data were processed

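The authors deposited log2 expression values made with RMA, a background correction, equalisation between arrays and probe summary, as named in the submitters' processing notes; no version is given in the sources used here. A shift shared by most genes would be removed, and low-level changes are compressed. Of 41344 rows, 23520 name 1 gene in the platform annotation, and the highest-mean row stood for a gene. All 54 Entrez identifiers of the chemokine genes matched RefSeq. Values were compared with limma 3.58.1 in R 4.3.3 (4.50 prior and 4 residual degrees of freedom, no block), two-sided, adjusted by Benjamini-Hochberg over 22179 genes. A permutation of 3 against 3 arrays cannot go below 0.10. The fit was tested on simulated data. Intervals are 95% from the fit, not adjusted.

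The genes, lists and motifs were chosen with earlier results of these data known. Genes with a call, the partners of called genes, and the 6 uncalled genes with the highest mean are given with values; up to 4 called genes with the largest change were named per pathway list, and other list genes in the text were added after their values were seen. The lists were described by counts and medians, without set tests. Protein sequences planned for display were not used here. One pathway list is not reported here. Python 3.11.15, pandas 2.3.3 and matplotlib 3.10.9 were used for motifs and figures. Alternatives changed scaling, low-level filter, rows per gene, moderation, array weights, block, thresholds and arrays included.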

Additional observations from a re-analysis of the deposited data

How the results depend on the processing

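Cxcl16, Cx3cl1, Cxcl17 and Cxcl13 kept direction and call under all 18 alternatives tried. Cxcl5 kept both under the 17 in which it was tested, and Cxcl10 lost its call only without moderation. The count of higher chemokine genes was 6, with 4 without moderation and 5 to 7 when an array was left out. The count of lower ones was 3. It was 1 without moderation, with a minimum absolute log2 fold change of 1 and at an adjusted p under 0.01. It ran from 1 to 3 when an array was left out, being 1 without GFP-negative replicate 1, GFP-negative replicate 3 or GFP-high replicate 1. Leaving out the lowest 30% of genes removed 22 of the 54, Cxcl5 and Ackr1 among them. Over all genes the 2888 higher and 3773 lower calls became 1249 and 1335 with the minimum change of 1, and the lower calls became 2442 at an adjusted p under 0.01. With the replicate block the counts were 6 higher and 2 lower; Ccl27a alone lost its call. Deviations of samples of the same number correlated at 0.11, -0.03 and -0.00 across genes for replicates 1, 2 and 3, the first being the highest of the 9 cross-group values; not every pair was over 0.1, so no pairing was assumed. Among values of genes without a call, 44 of 790 changed sign (22 genes, none beyond 0.31), 10 of them without GFP-high replicate 2. The cause was not tested. No detection values come with RMA, so low signal cannot be separated from background.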
